A study of Mus musculus with 9 samples.

Results

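The extracellular antagonists of Wnt signalling considered here were 10 genes chosen by name, with earlier results of these data known. They were the Dickkopf genes Dkk1, Dkk2 and Dkk3, the secreted Frizzled-related genes Sfrp1, Sfrp2, Sfrp4 and Frzb, and Apcdd1, Wif1 and Sost. Of these, 9 had a row among the 31405 rows of the linear RNA tables, and Sost was not analysed here because no row carried its symbol or gene identifier. Only 4 of them, Dkk2, Dkk3, Apcdd1 and Sfrp2, were among the 13049 rows that reached at least 1 FPKM (fragment counts divided by the length of the transcript and the size of the library) in at least 3 libraries and were tested. The other 5 lay below that level and are given as values. Most of the antagonist RNA came from Dkk2, Apcdd1 and Dkk3, and each of these was several-fold lower in both osteogenic conditions than in proliferation medium.

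The cells were mouse bone marrow mesenchymal stem cells (BMSCs) from a purchased stock, cultured for 7 days in 3 conditions with 3 libraries each. PM was proliferation medium, without osteogenic supplements. OM was osteogenic medium, supplemented with dexamethasone (a synthetic glucocorticoid) at 100 nM, ascorbic acid at 0.2 mM and beta-glycerophosphate at 10 mM. C2S was dicalcium silicate, a calcium silicate ceramic, given together with the same osteogenic supplements, so OM and C2S differ in the ceramic and both differ from PM in the supplements. The labels list more than 1 ceramic dose without tying one to the sequenced cultures. Whether the libraries within a condition are separate cultures is not stated, and the p-values below therefore describe only how far these libraries spread, which may be technical.

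Wnt proteins are secreted lipid-modified ligands that bind Frizzled receptors together with the co-receptors Lrp5 and Lrp6, and in the canonical branch this stabilises beta-catenin, which acts with TCF/LEF factors on target genes. Extracellular antagonists act at either step: Dickkopf proteins and sclerostin (the product of Sost) bind the Lrp5/6 co-receptors, whereas secreted Frizzled-related proteins and Wif1 bind the Wnt ligands themselves. The pathway is known for its role in the commitment of marrow stromal cells to bone-forming cells. Apcdd1 differs from the rest of the list in that its product is known as a membrane-bound glycoprotein rather than a freely secreted one.

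The recovered read totals lay between 29579826 and 38762179 per library, and the small nuclear RNA Rn7sk took 28.8% to 36.1% of the summed FPKM. Of 11 mesenchymal stromal markers, 9 were tested, with 2 of the 9 at the filter through PM alone. In OM against PM, 27.7% of all tested genes were called lower and 27.1% higher. Of the markers, 7 were called lower, 1 higher (Ly6a) and 1 did not pass. The summed level of all 11, 1291 to 1424 FPKM in PM, 1291 to 1499 in OM and 1459 to 1565 in C2S, was led by Ly6a (624 ± 73.9, 862 ± 114 and 929 ± 52.9 FPKM; SD, n = 3). The 6 macrophage markers summed to 7.30 to 8.24 FPKM in PM, 2.54 to 2.87 in OM and 2.16 to 2.85 in C2S. Of the 2 tested, Cd68 was called lower in OM, and Lyz2 reached the filter through PM alone and so had to differ; Ptprc, which defines blood-derived cells, did not exceed 0.009 FPKM in any library. The 6 adipocyte markers with a row summed to 220 to 243 FPKM in PM, 93.5 to 101 in OM and 121 to 135 in C2S, which followed Lpl (224 ± 12.8 to 71.2 ± 2.88 FPKM from PM to OM), whereas Fabp4 (0.432 ± 0.0861 to 15.7 ± 1.19) and Pparg (2.13 ± 0.161 to 8.86 ± 0.707) went up. The 8 osteoblast markers summed to 114 to 136 FPKM in PM, 111 to 144 in OM and 201 to 256 in C2S. Within that sum Col1a1 fell in OM (98.6 ± 8.10 to 29.9 ± 3.31 FPKM) and Spp1 (16.7 ± 3.99 to 82.9 ± 15.7) and Alpl (7.02 ± 0.239 to 9.82 ± 0.738) rose, while the defining osteoblast gene Sp7 stayed at or below 0.0339 FPKM. The 4 osteocyte markers with a row summed to 1.40 to 1.95, 1.25 to 1.38 and 1.28 to 2.18 FPKM in PM, OM and C2S, and 3 of them stayed at or below 0.282. Many of these markers differed between the same groups as the antagonists, and their part in the antagonist results was not tested. In bulk RNA, fewer cells of a type and less RNA per cell cannot be told apart.

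Dkk2, whose product binds Lrp5/6 and can inhibit or activate signalling depending on the co-factor Kremen2, lies at chr3:132085292-132180304 (mm10, plus strand, 4 exons). Its level was 126, 141 and 145 FPKM in the PM libraries, 9.78, 9.34 and 8.99 in OM and 11.6, 10.5 and 11.0 in C2S. All PM libraries stood far above the rest, and every C2S library was above every OM library. The PM mean was 137 ± 10.3 FPKM, against 9.37 ± 0.394 in OM and 11.0 ± 0.565 in C2S (SD, n = 3). On the log2(FPKM + 1) scale Dkk2 fell by 3.73 ± 0.06 (SE) from PM to OM (limma, adjusted p = 4.5e-10) and by 3.52 ± 0.06 from PM to C2S (adjusted p = 5.5e-10). From OM to C2S it rose by 0.21 ± 0.06 (adjusted p = 0.0409). That smaller call was lost under 10 of 17 alternative settings. Its direction was the same in all 17, but leaving out 1 library could not reverse it, because C2S and OM did not overlap. The difference did not pass once PM replicate 2 was left out (adjusted p = 0.0580). Nor did it pass without any single OM library (0.0573, 0.0850 and 0.113 without replicates 1, 2 and 3) or any single C2S library (0.127, 0.0565 and 0.108).

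Dkk3, a divergent Dickkopf gene whose product does not act on Lrp5/6 as the other family members do, lies at chr7:112116017-112159057 (mm10, minus strand, 8 exons). The 3 PM libraries held 49.1, 50.6 and 52.3 FPKM of Dkk3, the OM libraries 16.4, 16.5 and 16.6 and the C2S libraries 19.9, 18.5 and 17.3. The PM libraries were again all above the others, and the C2S libraries lay just above the OM libraries without overlap. The means were 50.6 ± 1.60, 16.5 ± 0.0639 and 18.6 ± 1.31 FPKM (SD, n = 3). Dkk3 fell by 1.56 ± 0.05 from PM to OM (limma, adjusted p = 2.4e-08) and by 1.40 ± 0.05 from PM to C2S (adjusted p = 4.5e-08). The difference of 0.16 ± 0.05 between C2S and OM did not pass the threshold of 0.05 (adjusted p = 0.0555), but passed it without C2S replicate 3 (adjusted p = 0.0349).

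Apcdd1, known as an inhibitor that interacts with both Wnt and Lrp proteins at the cell surface, lies on chromosome 18 (mm10, plus strand). Its level was 53.5, 57.2 and 54.5 FPKM in PM, 12.1, 12.3 and 11.3 in OM and 10.1, 9.77 and 9.07 in C2S. Here every C2S library lay below every OM library, the opposite order to Dkk2 and Dkk3. The means were 55.1 ± 1.90, 11.9 ± 0.524 and 9.65 ± 0.535 FPKM (SD, n = 3). Apcdd1 fell by 2.12 ± 0.05 from PM to OM (limma, adjusted p = 3.9e-09), by 2.40 ± 0.05 from PM to C2S (adjusted p = 1.7e-09) and by 0.28 ± 0.05 from OM to C2S (adjusted p = 0.00635). The call between C2S and OM held under all 17 alternative settings, with adjusted p from 0.00361 to 0.0295.

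Sfrp2, which encodes a Wnt-binding protein with a Frizzled-like cysteine-rich domain, lies at chr3:83766321-83774316 (mm10, plus strand, 3 exons). It was at 2.89, 2.82 and 3.32 FPKM in PM, 0.0974, 0 and 0.0655 in OM and 0.101, 0.104 and 0.0315 in C2S. Thus it was low in PM and near or at 0 elsewhere, with the OM and C2S libraries overlapping. Recovered reads summed to 581 over the PM libraries, 11 over OM and 16 over C2S. At equal depth that is a PM to OM ratio of 57.4, with an exact 95% interval of 31.8 to 116 that, like the other read intervals here, covers counting error only. On the log2(FPKM + 1) scale, which understates changes of low genes, Sfrp2 fell by 1.93 ± 0.09 from PM to OM (limma, adjusted p = 1.9e-07) and by 1.89 ± 0.09 from PM to C2S (adjusted p = 1.9e-07). It reached the filter through PM alone, so a gene with its pattern had to differ there. No difference between C2S and OM was detectable at this depth (ratio 1.53, interval 0.667 to 3.65; adjusted p = 0.819). The antisense gene Gm26771 overlaps the end of Sfrp2 on the opposite strand and never exceeded 0.125 FPKM; no source used here gives the strand setting of the counting.

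Among the tested genes, 27.7% were called lower and 27.1% higher in OM than in PM, and 28.4% lower and 27.6% higher in C2S than in PM. These near-even counts (3542 higher and 3609 lower in OM, 3605 and 3706 in C2S) depend on the scaling: without Rn7sk and mitochondrial genes, a setting added after the data were seen, they were 2606 and 4295 in OM and 2752 and 4274 in C2S. Against those shares, Dkk2, Dkk3 and Apcdd1, which were above the filter in all 3 groups, were called lower in both comparisons. The PM libraries are shared by both comparisons. Between C2S and OM, 10.6% of tested genes were called higher and 11.5% lower, and the antagonists divided into 1 called higher (Dkk2), 1 called lower (Apcdd1) and 2 not passing. The counts behind these shares, 1380 and 1497 genes, depend on single libraries. The higher count was 878 without C2S replicate 2 and 739 without C2S replicate 3, and the lower count was 986 without OM replicate 1 and 961, 853 and 675 without C2S replicates 1, 2 and 3.

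**Figure D1:**
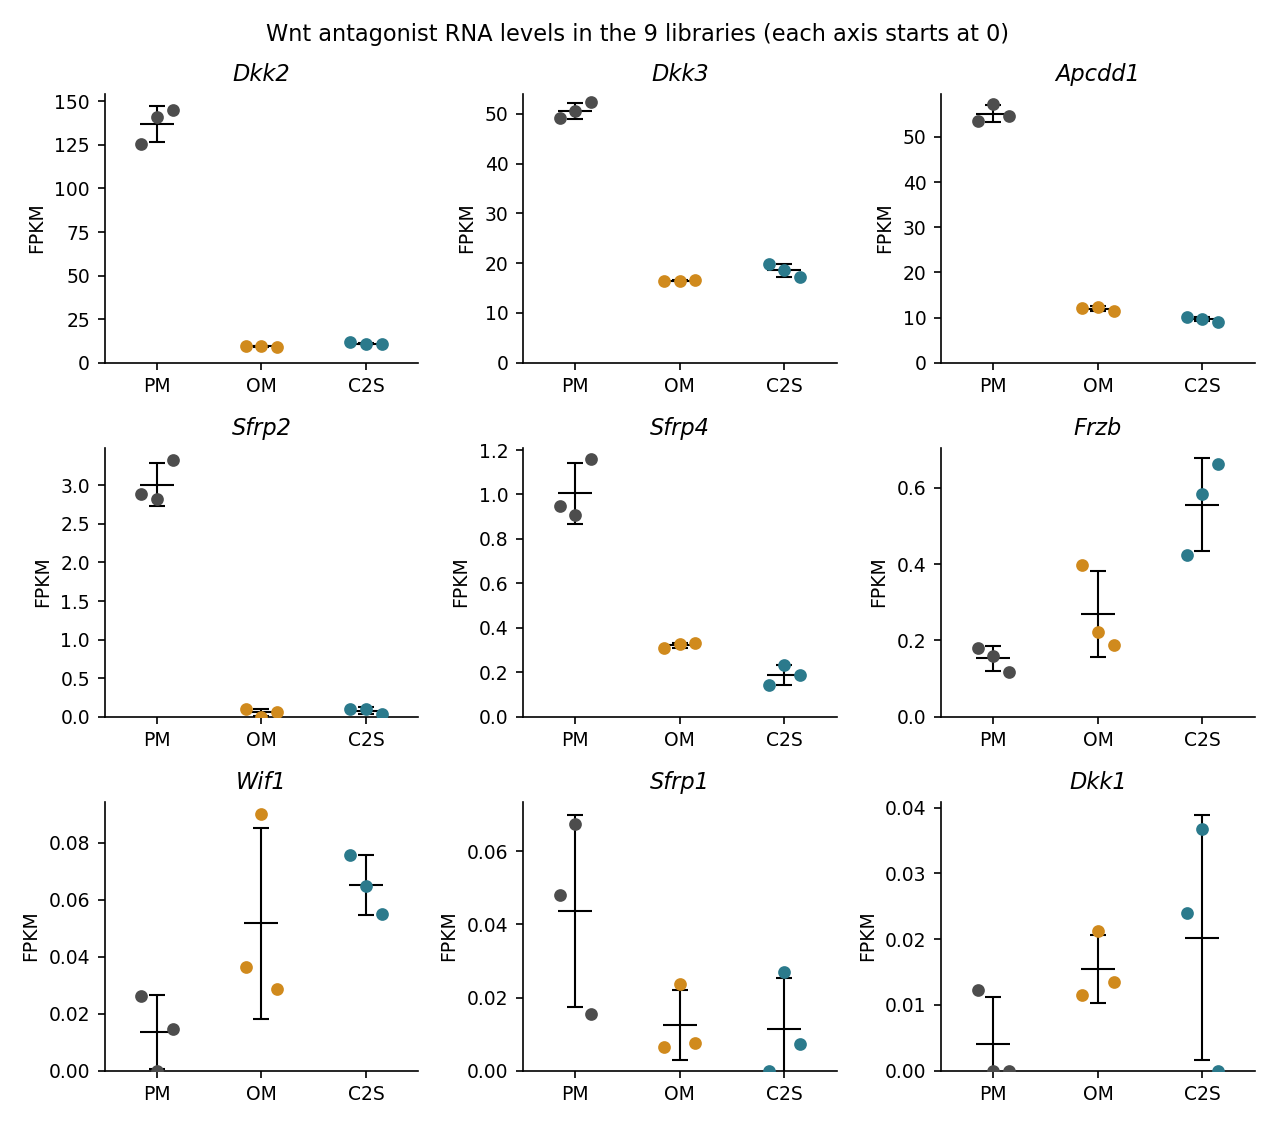
FPKM of each antagonist with a row in the 9 libraries, by condition (points, libraries; horizontal bar and whiskers, mean ± SD, n = 3; each vertical axis starts at 0 and has its own range). Dkk2, Dkk3, Apcdd1, Sfrp2 and Sfrp4 are highest in PM, while Frzb is highest in C2S.

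**Figure D2:**
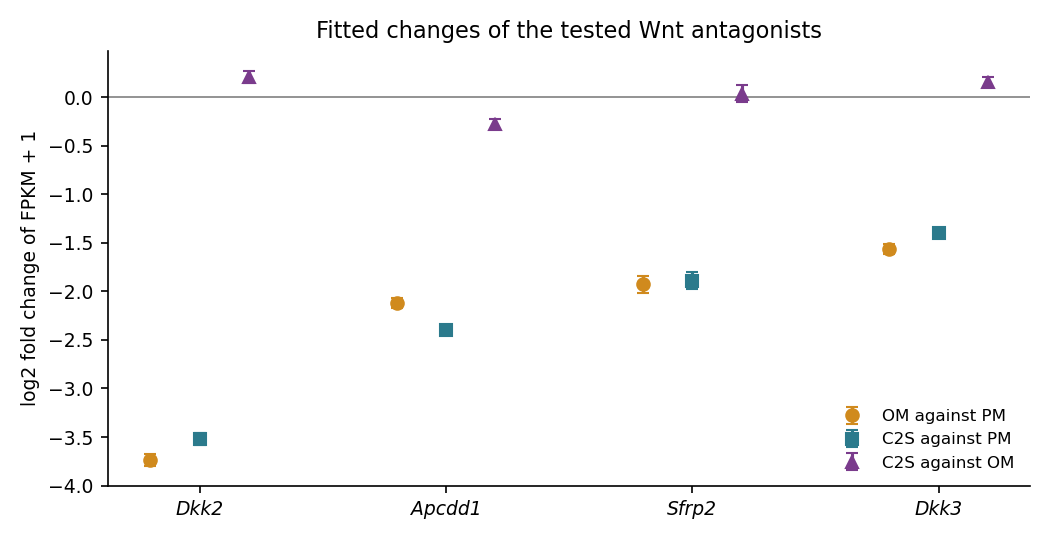
Fitted log2 fold change of FPKM + 1 with its standard error for the 4 tested antagonists in OM against PM, C2S against PM and C2S against OM. The differences from PM lie between -1.40 and -3.73, and those between C2S and OM lie between -0.28 and 0.21.

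The 250 bases before and 50 bases after the transcription start (RefSeq, GRCm38.p6, 5′ to 3′ on the gene's strand) were available for 6 of the 10 genes. They are shown for Dkk2 and Sfrp2, which had the largest PM to OM ratios. Capitals mark the Dkk2 matches to the searched motifs.
Dkk2 promoter, chr3:132085042-132085341, plus strand: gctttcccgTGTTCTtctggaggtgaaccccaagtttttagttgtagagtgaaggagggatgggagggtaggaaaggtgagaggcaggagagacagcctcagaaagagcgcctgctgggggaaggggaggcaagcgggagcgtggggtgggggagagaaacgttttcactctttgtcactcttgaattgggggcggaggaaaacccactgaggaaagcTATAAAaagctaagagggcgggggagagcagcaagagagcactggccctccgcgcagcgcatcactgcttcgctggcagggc
Sfrp2 promoter, chr3:83766071-83766370, plus strand: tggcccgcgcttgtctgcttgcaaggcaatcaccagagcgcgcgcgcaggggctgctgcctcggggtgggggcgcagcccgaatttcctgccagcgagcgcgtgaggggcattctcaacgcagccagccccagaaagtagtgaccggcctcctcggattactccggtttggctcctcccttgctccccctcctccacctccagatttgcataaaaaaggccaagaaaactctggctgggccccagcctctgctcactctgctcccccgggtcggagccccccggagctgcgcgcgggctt
The motifs searched on both strands were AGAACA (a single glucocorticoid receptor repeat), the full spaced palindrome of the same receptor, CTTTGAT (TCF/LEF), TGACTCA with its reverse complement TGAGTCA (AP-1), CACGTG (E-box) and TATAAA, the last added after the sequences were read. In the Dkk2 window AGAACA was present on the reverse strand at position -241 and TATAAA at -32 from the start, whereas the Sfrp2 window held none of these letters. AGAACA occurs in 19.0% of the 32851 promoter windows of this length, TATAAA in 13.6%, CTTTGAT in 3.73%, TGACTCA in 5.20%, CACGTG in 7.15%, and the full palindrome in 3 windows. The GC content was 57.7% for Dkk2 and 66.0% for Sfrp2, against a median of 52.7% over all windows. CpG dinucleotides numbered 11 and 22, against a median of 7.

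Sfrp4, another Wnt-binding secreted Frizzled-related gene (chr13:19623104-19632994, mm10, plus strand), stayed close to or below 1 FPKM. Its level was 0.947, 0.906 and 1.16 FPKM in PM, 0.310, 0.325 and 0.332 in OM and 0.143, 0.234 and 0.187 in C2S. The groups did not overlap, with PM above OM and OM above C2S. Summed reads of 391, 137 and 76 gave a PM to OM ratio of 3.10 (95% interval 2.55 to 3.79) and an OM to C2S ratio of 1.71 (1.29 to 2.30). In the fit without a filter on low values, Sfrp4 was called lower in OM than in PM (log2(FPKM + 1) difference -0.60, limma, adjusted p = 1.9e-04), as were 13.0% of the genes in that fit, and the difference between C2S and OM did not pass (adjusted p = 0.191; 3.25% of genes were called lower). The latter passed in the voom fit to the recovered reads, which was added after the data were seen (adjusted p = 0.0430; 9.75% of genes were called lower).

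Frzb encodes sFRP3 and is known as a Wnt antagonist of cartilage; it lies at chr2:80411970-80447625 (mm10, minus strand). Its level was 0.181, 0.160 and 0.118 FPKM in PM, 0.398, 0.221 and 0.188 in OM and 0.423, 0.584 and 0.662 in C2S. In FPKM the groups followed each other without overlap, from PM to OM to C2S, but OM replicate 1 lay close to the lowest C2S library. PM replicate 1 and OM replicate 3 held 19 and 18 reads, so the lack of overlap between PM and OM rested on library size. At equal depth the OM to PM ratio of summed reads was 1.76 (95% interval 1.23 to 2.56). The OM to PM difference passed neither without the filter (limma, adjusted p = 0.279) nor in the voom fit (adjusted p = 0.117). Reads summed to 47, 90 and 174, which gave a C2S to OM ratio of 2.03 (95% interval 1.57 to 2.65) and a C2S to PM ratio of 3.59 (2.59 to 5.06). Without the filter, Frzb was called higher in C2S than in PM (log2 difference 0.43, limma, adjusted p = 0.00402), as were 12.8% of genes, and with voom 25.2%. Its C2S to OM difference of 0.30 did not pass there (adjusted p = 0.0652; 3.44% of genes were called higher) and passed in the voom fit (adjusted p = 0.0227; 9.30% of genes). Of the 5 chondrocyte markers with a row, Sox9 was at 1.16 ± 0.172, 2.37 ± 0.243 and 2.24 ± 0.353 FPKM in the 3 conditions and Comp at 0.832 ± 0.147, 0.473 ± 0.141 and 0.647 ± 0.0941 (SD, n = 3). Acan, Col2a1 and Matn3 did not exceed 0.0577 FPKM in any library.

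Wif1, whose product sequesters Wnt ligands, was at 0.0261, 0 and 0.0147 FPKM in PM, 0.0365, 0.0900 and 0.0286 in OM and 0.0758, 0.0647 and 0.0550 in C2S. In FPKM both osteogenic conditions lay above PM without overlap, on only 3, 13 and 15 reads in PM, OM and C2S. PM replicate 1 and OM replicate 3 held 2 reads each, so the lack of overlap between PM and OM rested on library size. The OM to PM ratio was 3.99 with a 95% interval of 1.10 to 21.8, and in the fit without a filter neither comparison with PM passed (limma, adjusted p = 0.146 for OM and 0.0534 for C2S). Sfrp1, another Wnt-binding member of its family, was at 0.0480, 0.0676 and 0.0155 FPKM in PM, 0.00640, 0.0236 and 0.00750 in OM and 0, 0.0271 and 0.00720 in C2S. Its libraries overlapped between all groups, on 19, 6 and 5 reads. Dkk1, the best-known Lrp5/6-binding Dickkopf gene, was at 0.0123, 0 and 0 FPKM in PM, 0.0115, 0.0213 and 0.0135 in OM and 0.0239, 0.0367 and 0 in C2S. With 1, 4 and 5 reads in the groups, no order between conditions could be read for Dkk1.

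Over the 30617 genes above 0 in at least 1 library, 17.1% had all OM libraries below all PM libraries and 17.5% all above. Of the 9 antagonists with a row, 5 were below without overlap (Dkk2, Dkk3, Apcdd1, Sfrp2 and Sfrp4), 2 above (Frzb and Wif1) and 2 overlapped (Dkk1 and Sfrp1). For Frzb and Wif1 the lack of overlap rested on library size: PM replicate 1 and OM replicate 3 held 19 and 18 reads of Frzb and 2 each of Wif1. Between C2S and OM the shares over all genes were 12.8% below and 11.4% above; Sfrp4 and Apcdd1 were below and Dkk2, Dkk3 and Frzb above. Between C2S and PM, where the shares were 18.7% below and 18.5% above, the same 5 genes were below and the same 2 above as between OM and PM.

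The balance among the antagonists shifted along with their sum. Summed over the 9 genes, the PM level was 247 ± 13.1 FPKM, against 38.5 ± 0.872 in OM and 40.1 ± 2.08 in C2S (SD, n = 3). Dkk2 made up 55.5% ± 1.29 of that sum in PM, 24.3% ± 0.568 in OM and 27.4% ± 1.20 in C2S. Dkk3 made up 20.5% ± 0.576, 42.8% ± 1.13 and 46.2% ± 0.938, and so had the highest FPKM of the antagonists in both osteogenic conditions. The shares and the order depend on the transcript lengths used, 10879 bases for Apcdd1, 3705 for Dkk2 and 3359 for Dkk3. By summed recovered reads Apcdd1 stood first in each condition, with 58016 in PM, 13676 in OM and 10505 in C2S. Apcdd1 held 22.3% ± 0.940, 30.9% ± 0.780 and 24.0% ± 0.430. By FPKM the order in PM was Dkk2, Apcdd1, Dkk3, Sfrp2, Sfrp4 and Frzb, each separated from the next in every library, followed by Sfrp1, Wif1 and Dkk1, which overlapped. In OM it was Dkk3, Apcdd1 and Dkk2, then Sfrp4 and Frzb, whose libraries overlapped. In C2S it was Dkk3, Dkk2, Apcdd1, Frzb and Sfrp4, each separated from the next.

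**Figure D3:**
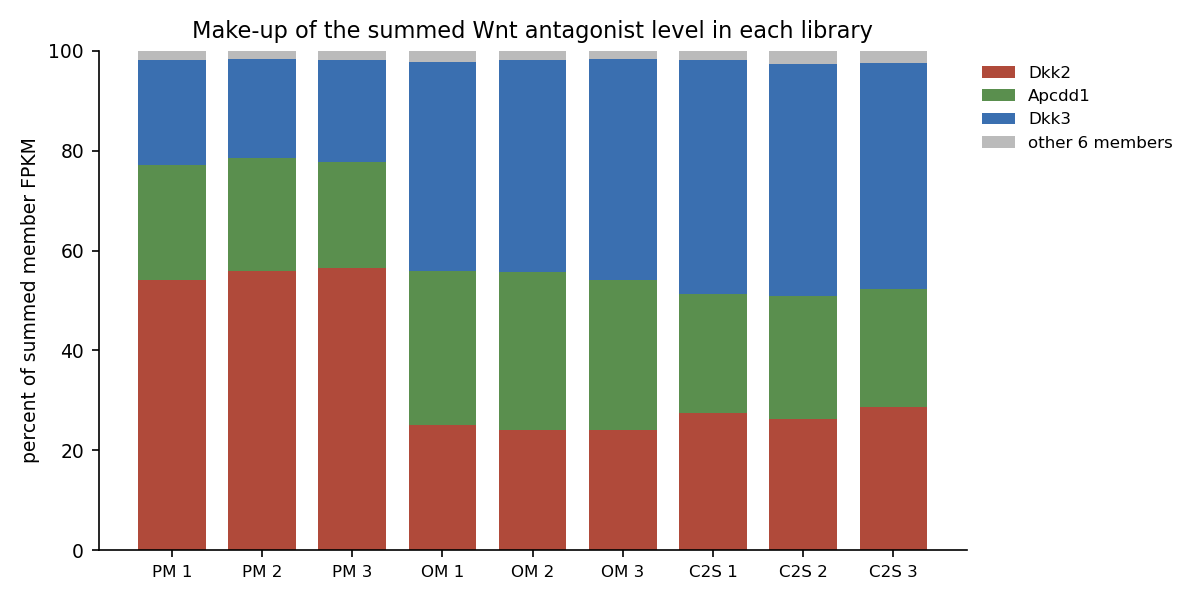
Share of the summed FPKM of the 9 antagonists held by Dkk2, Apcdd1, Dkk3 and the other 6 together, in percent, for each library. Dkk2 is the largest piece in each PM library and Dkk3 is the largest piece in each OM and C2S library.

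Ratios within a library do not depend on how libraries are scaled. Their place above or below 1 depends on the transcript lengths used. At fixed lengths, their change between conditions does not. The ratio of Dkk2 to Apcdd1 was 2.35, 2.47 and 2.66 in PM, 0.810, 0.757 and 0.794 in OM and 1.15, 1.07 and 1.21 in C2S. It therefore stood above 1 in PM, below 1 in OM and above 1 in C2S, with no overlap. For both OM against PM and C2S against OM a two-sided exact permutation test gave p = 0.1, the smallest that 3 against 3 libraries allow, and 0.12 after Benjamini-Hochberg adjustment over 6 ratio tests. The Dkk2 to Dkk3 ratio was 2.71 ± 0.130 in PM, 0.568 ± 0.0261 in OM and 0.594 ± 0.0365 in C2S (SD, n = 3). Between C2S and OM it differed by less than the spread between libraries (exact permutation p = 0.5).

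The other genes of the pathway were read by role, in lists also chosen with earlier results of these data known. Their counts are descriptive. Of 19 Wnt ligands, 17 had a row and 3 were tested. Wnt5b, which mainly signals outside the beta-catenin branch, had a PM level of 3.96 ± 0.222 FPKM, against 0.208 ± 0.0124 in OM and 0.207 ± 0.0400 in C2S, and Wnt9a at 1.62 ± 0.246, 0.274 ± 0.0518 and 0.167 ± 0.0462 (SD, n = 3); both reached the filter through PM alone. Wnt4 fell from 1.46 ± 0.0689 FPKM in PM to 1.05 ± 0.105 in OM (log2 change -0.26 ± 0.08, limma, adjusted p = 0.0170), a call lost without PM replicate 2 (0.0555) or OM replicate 3 (0.0596). Of the 6 genes for Wnt secretion and R-spondins, 3 were tested and all 3 fell in OM. Of all tested genes, 27.7% were lower and 27.1% higher there. Wls, the carrier of Wnt proteins to the surface, fell by 0.93 ± 0.04, and Rspo2, a secreted enhancer of Wnt signalling, by 1.29 ± 0.06. Porcn, which attaches the lipid to Wnt, fell by 0.68 ± 0.06. Wls went from 216 ± 0.663 to 113 ± 3.81 FPKM and Rspo2 from 5.53 ± 0.0769 to 1.67 ± 0.0850.

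Of 22 receptors and co-receptors, 15 were tested, of which 12 fell in OM, 1 rose and 2 did not pass, where 27.7% of all tested genes were lower and 27.1% higher; their median log2 change was -0.51, against 0.0028 over all tested genes, and 1 of them reached the filter through PM alone. The single higher call, Kremen1, was lost without any one PM library or without OM replicate 2. Lrp6, the co-receptor that Dickkopf proteins bind, fell from 108 ± 9.30 FPKM in PM to 31.0 ± 2.92 in OM (log2 change -1.76 ± 0.08, limma, adjusted p = 1.6e-07). Its level in C2S was 29.4 ± 0.748 FPKM, with a log2 difference from OM of -0.07 ± 0.08 (adjusted p = 0.557). Fzd1, a Frizzled receptor, fell from 30.3 ± 1.33 to 8.18 ± 0.800 FPKM (log2 change -1.77 ± 0.06, adjusted p = 4.9e-08). Lrp5 and Kremen1 were picked for their role after their values were seen. Lrp5 was at 3.48 ± 0.212, 2.36 ± 0.185 and 2.69 ± 0.385 FPKM in PM, OM and C2S, and Kremen1, a Dickkopf co-receptor, at 8.47 ± 0.173, 10.3 ± 1.30 and 10.1 ± 0.737. Kremen2 did not exceed 0.0282 FPKM. In C2S against OM, 3 receptors were lower, 2 higher and 10 did not pass, near the 11.5% lower and 10.6% higher over all tested genes. Neither higher call (Fzd4 and Ptk7) held without OM replicate 1 or 3, PM replicate 2, or any one C2S library, and that of Fzd4 was also lost without PM replicate 1 or OM replicate 2. Fzd8 fell from 7.49 ± 0.715 to 5.59 ± 0.277 FPKM (log2 change -0.36 ± 0.07, adjusted p = 0.00903) and Fzd2 from 20.01 ± 1.30 to 15.4 ± 0.633 (-0.36 ± 0.06, adjusted p = 0.00294).

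Among 13 other extracellular and membrane inhibitors, 9 had a row and 4 were tested. Igfbp4, an IGF-binding protein also reported to block Wnt signalling, went against the 4 tested antagonists: its PM level of 62.4 ± 2.63 FPKM rose to 158 ± 10.4 in OM (log2 change 1.33 ± 0.05, limma, adjusted p = 9.7e-08) and stood at 138 ± 2.98 in C2S. Trabd2b, a membrane protease that inactivates Wnt proteins, fell from 2.64 ± 0.477 to 1.18 ± 0.192 FPKM (-0.73 ± 0.11, adjusted p = 5.8e-04). Tpbg was called higher in OM by 0.14 ± 0.05 (adjusted p = 0.0408), a call lost under 12 of 17 settings, including those without PM replicate 1 (0.106), PM replicate 3 (0.112), OM replicate 2 (0.124), OM replicate 3 (0.0577) or C2S replicate 1 (0.0581), 2 (0.0593) or 3 (0.0604). The fourth tested gene did not pass. In C2S against OM, 11.5% of all tested genes were called lower and 10.6% higher. There 1 gene of the ligands (Wnt4), 1 of secretion and R-spondins (Rspo2) and 1 of these inhibitors (Igfbp4) was called lower. The other 2, 2 and 3 did not pass. Each of the 3 calls was lost without C2S replicate 1 or 3; those of Wnt4 and Rspo2 also without OM replicate 1 or 2, and that of Igfbp4 also without OM replicate 3 or C2S replicate 2.

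Of 25 intracellular transducers, 22 were tested, and in OM 12 fell, 3 rose and 7 did not pass (median log2 change -0.24), against 27.7% lower and 27.1% higher over all tested genes; 1 of the 22 reached the filter through PM alone. Gsk3b, a kinase of the beta-catenin destruction complex, fell from 18.4 ± 2.77 to 8.70 ± 0.808 FPKM (-0.996 ± 0.10, limma, adjusted p = 4.5e-05), and the co-repressor Tle1 rose from 12.1 ± 0.572 to 21.3 ± 0.902 (0.76 ± 0.05, adjusted p = 1.3e-06). In C2S against OM, 19 of the 22 did not pass, 2 were higher (Tle3 and Ctbp1) and 1 lower (Tle1). The Ctbp1 call was lost without OM replicate 1 or 3 or any one C2S library. Of 18 genes known as Wnt targets, 10 were tested; against the same shares, in OM 6 fell, 2 rose and 2 did not pass. In C2S against OM 2 targets fell, 4 rose and 4 did not pass, where 11.5% of all tested genes were lower and 10.6% higher. Wisp2 fell from 136 ± 5.17 to 39.0 ± 1.04 FPKM and again to 28.7 ± 0.341 in C2S (C2S against OM -0.43 ± 0.04, adjusted p = 3.3e-04), and Tnfrsf19 from 11.2 ± 0.332 to 2.64 ± 0.0865 and 1.45 ± 0.198 (-0.57 ± 0.07, adjusted p = 7.8e-04). Ccnd1, encoding cyclin D1, moved the other way, from 26.3 ± 4.18 FPKM in PM to 70.3 ± 5.48 in OM and 106 ± 1.99 in C2S (C2S against OM 0.59 ± 0.10, adjusted p = 0.00458). Twist1, a mesenchymal transcription factor, fell from 49.7 ± 1.61 to 37.6 ± 0.529 FPKM in OM and was 54.6 ± 2.46 in C2S (C2S against OM 0.52 ± 0.04, adjusted p = 1.7e-04). Many of these targets also respond to other signals. The 8 glucocorticoid-induced genes, a check of the dexamethasone in the medium, all rose in OM, with summed levels of 207 to 234 FPKM in PM, 1565 to 1644 in OM and 1274 to 1332 in C2S. In C2S against PM 7 were called higher, where 27.6% of all tested genes were, and Dusp1 did not pass (limma, adjusted p = 0.340). In C2S against OM 5 were called lower and 3 did not pass. Of the 5 calls, those of Zbtb16, Sgk1 and Dusp1 were lost without C2S replicate 3. That of Zbtb16 was also lost without OM replicate 1 or 2 or C2S replicate 1. That of Dusp1 was also lost without OM replicate 2 or 3 or C2S replicate 1 or 2.

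**Figure D4:**
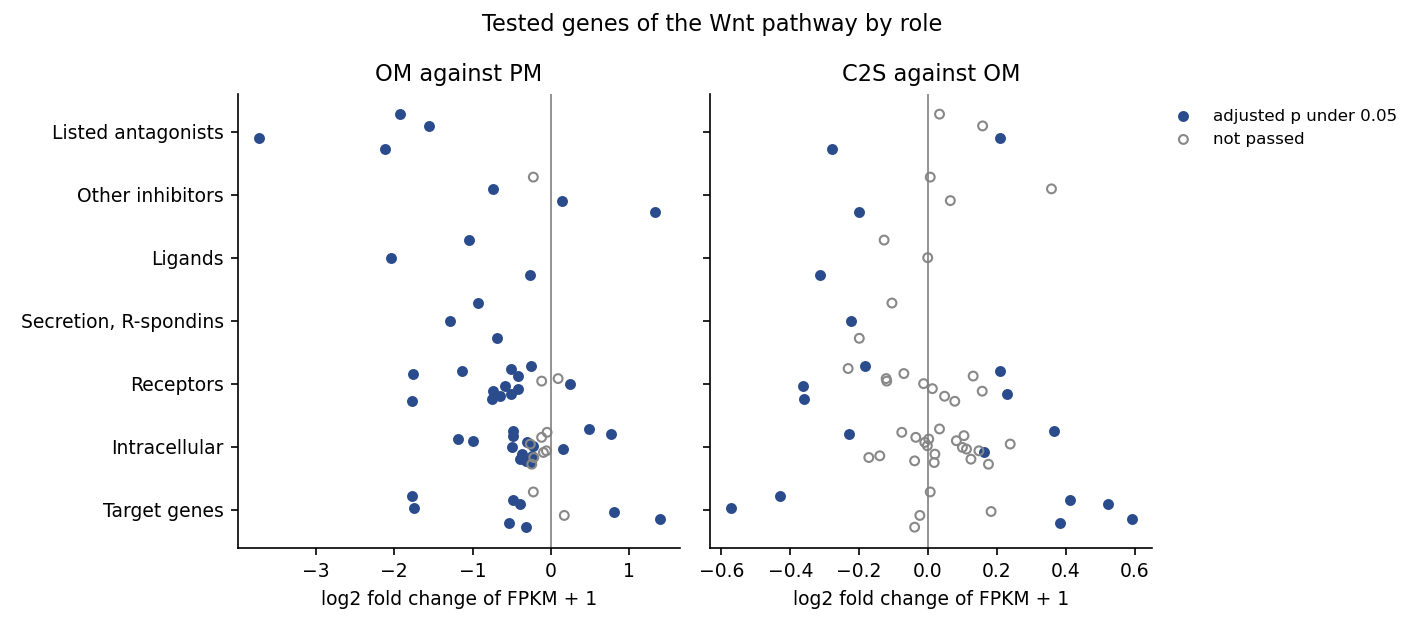
Log2 fold change of FPKM + 1 of each tested Wnt pathway gene, grouped by role, in OM against PM (left) and C2S against OM (right, with a narrower axis); filled points passed the threshold. The listed antagonists reach -3.73 on the left, and receptors, with a median of -0.51, lie mostly below 0.

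The genes whose pattern over the 9 libraries was most like that of an antagonist were found by Pearson's r of log2(FPKM + 1) over all tested genes. Because PM stands apart from the other groups for each antagonist tested, r here mostly reflects that split. For Apcdd1 the closest gene was Rspo2 (r = 0.999), with mean levels of 5.53, 1.67 and 1.29 FPKM in PM, OM and C2S. For Dkk2 it was Tmem56 (r = 0.999; 16.2, 2.32 and 2.53 FPKM), followed by Gm12248 (20.4, 0.629 and 0.764 FPKM). For Dkk3 it was Egfl6, a secreted EGF-like protein (r = 0.998; 19.4, 3.15 and 3.63 FPKM), followed by Serpinf1, which encodes pigment epithelium-derived factor (155, 77.0 and 81.2 FPKM). For Sfrp2 it was Pea15a (r = 0.999; 51.9, 21.3 and 21.8 FPKM), followed by Igf1, insulin-like growth factor 1 (17.0, 0.799 and 0.831 FPKM). Apcdd1 and its closest gene were lower in C2S than in OM, whereas Dkk2, Dkk3 and theirs were higher in mean. The closest genes were picked by r over these same 9 libraries, so the choice itself favours a shared direction. The Rspo2 call between C2S and OM (limma, adjusted p = 0.0237) did not hold when OM replicate 1 (0.0690) or 2 (0.0602), or C2S replicate 1 (0.0635) or 3 (0.0896), was left out.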

How the data were processed

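RNA of 9 libraries was measured. The authors deposited a table of linear RNA and a table of circular RNA per library; the submitters' processing notes name STAR, HTSeq, RSEM and mm10, without roles or versions. The linear values carry no unit in the header and were read as FPKM deposited by the authors: multiplied by the longest transcript length (GENCODE M21) and 1 total per library, 98.5% to 99.1% of low values came out whole within 0.1. These recovered reads give the counts, ratios and intervals above. The circular values deposited by the authors were read as RPM, reads scaled to the library total.

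FPKM were tested as log2(FPKM + 1) with limma 3.58.1 (R 4.3.3) in 1 fit over all 9 libraries with condition as the only term, mean trend, and Benjamini-Hochberg adjustment over 13049 genes at 0.05; genes had to reach 1 FPKM in at least 3 libraries. The fit was tested on simulated data with genes changed in C2S only. It recovered 93% of 100 genes changed 1.5-fold and 100% of 100 changed 2-fold, with 13 false among 206 calls. The simulated spread between replicates was set in advance (dispersion 0.003) and not fitted to these libraries. How the fit does at their own spread is therefore not shown. Alternatives were another pseudocount (0.1), no filter, 2 scalings, a replicate block, no mean trend, voom on reads (at least 10 in 3 libraries), only the groups compared, and each library left out. The antagonists and lists were chosen with earlier results of these data known. Up to 4 called genes per list and comparison with the largest change, and the 3 genes most like each antagonist, could be named. Replicates of a condition differed by more than sampling noise (chi-square per degree of freedom 3.69 to 31.3).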

Additional observations from a re-analysis of the deposited data

Results flagged for a closer look

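Of 6614 circular RNAs in the tables, 1 had a listed antagonist as host gene, an exonic circle of Dkk2 at chr3:132173784-132179259 (mm10, plus strand). It was listed only in C2S replicate 1, at 111.7 RPM, and in none of the other 8 libraries. It is given here because it is a signal outside the linear measurement; the value was the smallest listed in that library and was shared by 898 of its 2416 circular RNAs. The circle starts at the start of exon 2 and ends inside exon 4, not at an annotated exon end. Linear Dkk2 in that library was 11.6 FPKM, against 126 to 145 FPKM in the PM libraries, where the circle was not listed. The RPM value cannot be compared with these FPKM values, because the total behind it is not stated.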

How the results depend on the processing

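The calls of Dkk2, Dkk3 and Apcdd1 against PM kept direction and side of the threshold under all 17 settings, as did Apcdd1 between C2S and OM. Those of Sfrp2 against PM did too, but Sfrp2 reached the filter through PM alone and so had to differ. Between C2S and OM the count of antagonists called higher went from 1 to 0 without the filter, with the replicate block or with no mean trend, and to 2 with voom, which also called 2 lower in place of 1; the cause was not tested. Leaving out single libraries gave 0 to 1 higher, 739 to 1551 of all genes higher (1380 with all) and 675 to 1675 lower (1497 with all), the lowest in both without C2S replicate 3; without the filter 994 genes were lower. Between C2S and PM, Frzb brought the count called higher from 0 to 1 without the filter and with voom. Whether the replicate numbers pair the libraries was not settled by the correlations of deviations between same-numbered libraries. Between C2S and OM these were 0.0841 to 0.246, and 6 of 6 libraries correlated best with their own number. Between OM and PM they were -0.0243 to 0.395, and 4 of 6 libraries correlated best with their own number. Between C2S and PM, 3 of 6 libraries did so. Under the replicate block the adjusted p of Dkk2 between C2S and OM was 0.0664. Among the counts over all genes or antagonists, 184 recomputed values stayed within 1.5 times of the reported ones and 20 moved; among the pathway lists 97 counts moved, most of them counts of 0 to 2 genes. Scalings shifted the median of all genes by less than 0.1 on the log2 scale. Depth limits Dkk1, Sfrp1 and Wif1, which had 1 to 19 reads per condition.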
